A study of Mus musculus with 30 samples.

Results

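Slx1b, Gdpd3 and Rpp40 are 3 of the 28146 distinct gene names on a mouse expression array. Slx1b goes by its older name Giyd2 in the files. It has 2 probes, as does Rpp40, and Gdpd3 has 1, so that 5 of 41174 probes were followed, each kept apart from the others. The genes were chosen by their measured differences between genotypes, and Slx1b and Rpp40 also for unlike differences at their 2 probes. The genotype differences of these 5 probes are therefore given as a description, with no test. The same holds for how they rank among other probes.

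The RNA came from hypothalamus of young adult mice, described as male, on a C57BL/6 background. In Per3 5/5 mice (labelled Boxhill) and Per3 4/4 mice (labelled Coach) a mouse Per3 exon was replaced by its human counterpart. The human exon carries a primate-specific tandem repeat, here with 5 or 4 repeats. These mice were made by targeting in 1 ES cell line of a C57BL/6 congenic strain, and by Cre recombination. They may still carry minor polymorphisms of those cells. The wild-type (WT) mice were bred from the same conditional line, and Cre was bred out of all 3 genotypes. All mice were kept in 3.5 h light and 3.5 h dark, and brains were taken in light phase 17. The 30 arrays fell into 2 runs, told apart by the layout of the scanner files, of which run 1 held 7 Per3 5/5 arrays and WT arrays 1 to 7, and run 2 held 8 Per3 4/4 arrays and WT arrays 8 to 15. The methods describe 8 mice per genotype, and whether the 15 WT arrays came from 15 mice is not given in the sources used here.

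Each knock-in genotype was compared with the WT arrays of its own run. SEs come from 1 fit of all 30 arrays and use 1 spread per probe over both runs. Pooled SDs are those of the 2 groups compared. Levels are log2 of the processed spot signal minus log2 of the 75th percentile of that signal on the same array, so that 0 is the level of that percentile. The percentile ranged from 752 to 1546 signal units in run 1 and from 347 to 1370 in run 2, and 58.6 to 74.6% of spots were well above background over both runs. Hypothalamic neuron markers were present, since no more than 2 of 13 probes of that list were never well above background in a group. Their summed level, described at the end, was 45.1 on WT array 10 and 154.5 to 367.9 on the other arrays of run 2. Per3 4/4 arrays 6 and 7 had no Ddx3y probe well above background, which goes against the stated sex, and the Per3 4/4 differences of member probes and of named partner genes are given with and without them. In a tissue block, fewer cells of a type and less RNA per cell cannot be told apart.

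SLX1 is the nuclease subunit of the SLX1-SLX4 endonuclease, which cuts branched DNA such as Holliday junctions during recombination repair. GDPD3 is a membrane-bound enzyme of the glycerophosphodiester phosphodiesterase family that releases lysophosphatidic acid from lysophospholipids. RPP40 is a protein subunit of RNase P, the ribonucleoprotein that trims the leader of precursor tRNAs, and of the related RNase MRP.

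The probes are shown because the results turn on which stretch of each transcript was read. Each probe has 60 bases, and positions are of build mm9, named in the run 1 files. The 2 probes whose bases span a splice junction are printed whole, and the others by their first 30 bases.
Slx1b A_51_P335104: ggggagtcacagaaaaaggcgctcacagaa
Slx1b A_51_P113773: gacagacttgctggagacttgatcctaagt
Gdpd3 A_51_P426875: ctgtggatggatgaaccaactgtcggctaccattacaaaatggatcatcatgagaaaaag
Rpp40 A_51_P319392: acactctgggttcttagagtacaactttgg
Rpp40 A_52_P366047: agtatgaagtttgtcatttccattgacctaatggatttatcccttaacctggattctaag
Slx1b probe A_51_P335104 lies at chr7:133833094-133833153 and A_51_P113773 at chr7:133835102-133835161, both on the minus strand. They start 2008 bases apart in the genome and in the transcript (positions 2979 and 971), and A_51_P335104 is the more 3' of them. The run 1 files assign both to NM_029420, whereas the older annotation in the run 2 files assigns A_51_P335104 to the cDNA AK153779.

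The Gdpd3 probe lies on the plus strand at chr7:133914520-133914693, 79359 bases from the nearer Slx1b probe, and its bases span 174 bases of genome. In the gene order of the RefSeq table of GRCm38, 4 entries stand between Slx1b and Gdpd3, namely Bola2, Coro1a, the pseudogene Snrp1c-ps1 and Mapk3. Rpp40 probe A_51_P319392 lies at chr13:35985465-35985524 and A_52_P366047 at chr13:35993254-35993894, both on the minus strand and 7730 bases apart, and the latter spans 641 bases of genome. The run 1 files assign A_51_P319392 to the cDNA AK048810, from position 4182, and A_52_P366047 to NM_145938, from position 441. The run 2 files assign both to NM_145938. No member probe shared more than 14 bases in a row with any other probe on the array.

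Slx1b probe A_51_P335104 was either high or low on each array. In run 1 it was high on Per3 5/5 arrays 2, 4 and 7 and on WT array 3, with levels from 0.28 to 0.38 and signals from 956 to 1287. On the other 10 arrays the level lay between -5.02 and -4.11, and the signal between 30.6 and 59.1. Both genotypes thus held high and low arrays, and the 4 high arrays came from 3 of the 4 slides.

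In run 2 the same probe was low on Per3 4/4 arrays 1 and 3, at -4.44 and -5.41, with signals of 49.2 and 24.7. The other 14 arrays, all 8 WT arrays among them, ranged from -0.69 to 1.17. All 30 spots were well above background, the low ones included. High arrays were thus 4 of 14 in run 1 and 14 of 16 in run 2.

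The other Slx1b probe did not separate the arrays. A_51_P113773 had its lowest, median and highest levels at -1.22, -1.04 and -0.87 in Per3 5/5 mice and at -1.25, -1.22 and -1.01 in the WT mice of run 1. In run 2 these were -1.63, -1.12 and -0.93 in Per3 4/4 mice and -2.08, -1.04 and -0.64 in WT mice. The groups overlapped in both runs.

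**Figure D1:**
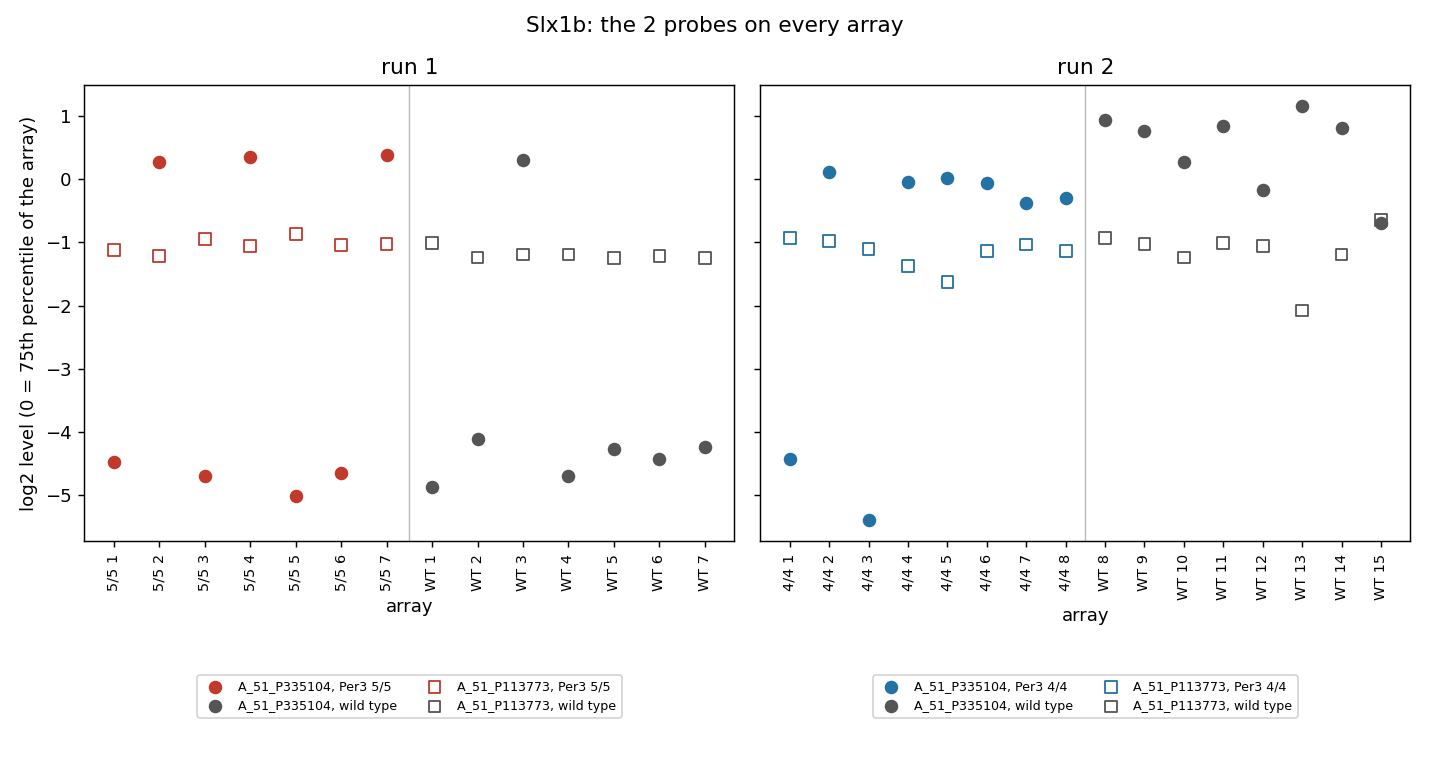
Log2 level of Slx1b probes A_51_P335104 and A_51_P113773 on each array of run 1 and run 2, with 0 as the 75th percentile of the array and 1 point per array. A_51_P335104 lies at or above -0.69 or at or below -4.11 with no array in between, while A_51_P113773 stays between -2.08 and -0.64.

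The means of A_51_P335104 were -2.55 ± 2.71 (SD, n = 7) in Per3 5/5 mice and -3.76 ± 1.82 (SD, n = 7) in WT mice, a difference of 1.21 (SE 1.00). Single arrays set its size, since it was 1.89 without WT array 3 and 0.72 to 0.73 without Per3 5/5 array 2, 4 or 7. In run 2 the means were -1.31 ± 2.25 (SD, n = 8) in Per3 4/4 mice and 0.50 ± 0.64 (SD, n = 8) in WT mice, a difference of -1.81 (SE 0.94). It was -2.17 without Per3 4/4 arrays 6 and 7. The first difference was smaller than the pooled SD within the groups of its run, 2.31, and the second larger than that of 1.66.

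At A_51_P113773 the differences were 0.15 (SE 0.14) in Per3 5/5 mice and -0.02 (SE 0.13) in Per3 4/4 mice, or -0.05 without arrays 6 and 7. The former exceeded the pooled SD within groups, 0.10, and the latter was smaller than that of 0.34 in run 2.

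The difference in level between the 2 Slx1b probes of an array does not depend on how that array was scaled. It ranged over 5.65 in run 1, from -4.14 on Per3 5/5 array 5 to 1.50 on Per3 5/5 array 2, and over 7.56 in run 2. Among 13772 pairs of tested probes of 1 gene in run 1 the median range was 1.06, and 12 pairs, Slx1b included, ranged at least as widely as Slx1b. In run 2 the median was 1.54 over 13686 pairs, and 9 pairs ranged at least as widely.

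The separation of the arrays was also set against that at other probes, by the widest interval between neighbouring ordered levels with at least 2 arrays on either side. In run 1 A_51_P335104 had the widest interval of 29928 probes, 4.39, against a median of 0.17. In run 2 its interval of 3.75 ranked 6 of 29835, against a median of 0.26. In run 1, 6 probes had their widest interval between the same 4 arrays and the other 10. Besides Slx1b these were the unnamed probe A_52_P932831 (1.05), Gdpd3 (0.51), Ndrg3 (0.25), Fgfr2 (0.14) and Calcrl (0.09). A_52_P932831 and Fgfr2 lie on chromosome 7, as do Slx1b and Gdpd3, but the intervals of Fgfr2 and Calcrl were below the median of 0.17. How many of all tested probes lie on chromosome 7 was not counted. Only Gdpd3 was lower, not higher, on the 4 arrays. In run 2, 8 probes, Slx1b included, had their widest interval between Per3 4/4 arrays 1 and 3 and the other 14. Of these only Slx1b and Mylpf, described at the end, lie on chromosome 7. Apart from Slx1b, no probe was in both sets.

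Gdpd3 was lowest on the arrays where Slx1b A_51_P335104 was highest. In run 1 its levels were -1.30 to -0.92 on the 4 arrays with high Slx1b, with signals of 306 to 546, and -0.42 to 0.20 on the other 10, with signals of 741 to 1210. The 2 sets of arrays did not overlap.

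In run 2 Gdpd3 was low on WT arrays 8, 9, 11, 13 and 14, at -5.62 to -4.75, with signals of 17.6 to 35.5. The other 11 arrays, all 8 Per3 4/4 arrays among them, ranged from -1.22 to 0.54. The 5 low arrays came from all 4 slides of the run and had the 5 highest levels of Slx1b A_51_P335104, at least 0.77 against at most 0.28 elsewhere. All 30 Gdpd3 spots were well above background. The interval of 3.53 ranked 7 of 29835 probes, and no other tested probe had its widest interval between these sets of arrays.

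**Figure D2:**
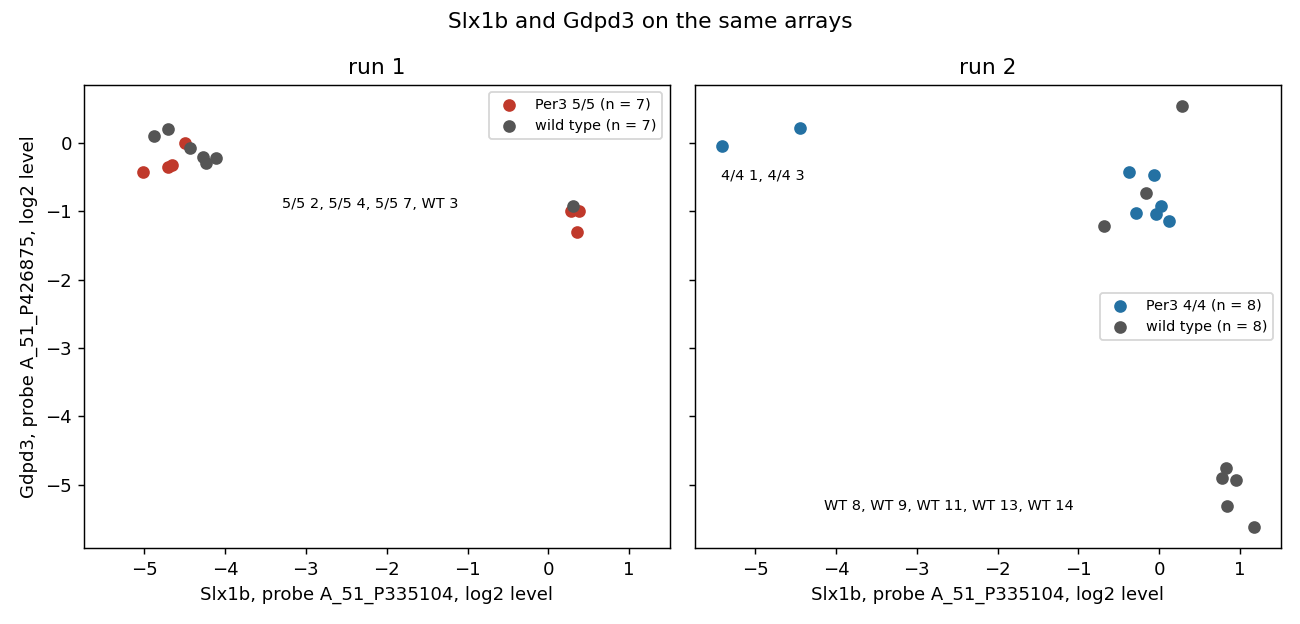
Log2 level of Gdpd3 (vertical axis) against that of Slx1b probe A_51_P335104 (horizontal axis), 1 point per array, for run 1 and run 2. The 4 arrays with high Slx1b in run 1 have Gdpd3 at or below -0.92, and the 5 WT arrays with Slx1b at or above 0.77 in run 2 have Gdpd3 at or below -4.75.

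In Per3 4/4 mice the lowest, median and highest Gdpd3 levels were -1.14, -0.70 and 0.22, and in the WT mice of run 2 they were -5.62, -4.82 and 0.54. The groups overlapped, because WT arrays 10, 12 and 15 read 0.54, -0.74 and -1.22. The 2 highest Per3 4/4 levels, 0.22 and -0.04, were on arrays 1 and 3, where Slx1b was low. The means were -0.61 ± 0.51 (SD, n = 8) and -3.37 ± 2.46 (SD, n = 8), a difference of 2.76 (SE 0.63), or 2.71 without Per3 4/4 arrays 6 and 7 and 1.71 after a normexp background correction. The difference of 2.76 exceeded the pooled SD of 1.77. Its SE of 0.63 also draws on the narrower spread of run 1, where the pooled SD was 0.42. Among the 8 WT arrays the summed level of the anterior pituitary markers, described at the end, was 5.86 to 982 on the 5 with low Gdpd3 and 0.365 to 2.88 on the other 3, and on the Per3 4/4 arrays, all with higher Gdpd3, it was 2.26 to 24.8. WT array 10, with the highest Gdpd3 level of the run, had the lowest hypothalamic neuron sum of the run, 45.1. The part of these sums in the Gdpd3 levels was not tested.

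In run 1 the lowest, median and highest Gdpd3 levels were -1.30, -0.42 and 0.00 in Per3 5/5 mice and -0.92, -0.21 and 0.20 in WT mice. The means were -0.62 ± 0.47 (SD, n = 7) and -0.20 ± 0.36 (SD, n = 7). Their difference of -0.42 (SE 0.67) was about as large as the pooled SD of 0.42. The SE also draws on the wider spread of run 2, where the pooled SD was 1.77.

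Among all tested probes, the pattern most like that of Slx1b A_51_P335104 was that of A_52_P932831, which carries no gene name in the files. Likeness was taken as the mean absolute difference in level over the 30 arrays, after the median of each probe in each run had been subtracted. It was 0.97 for this probe and 1.15 to 1.16 for the next 4, where a flat line gave 1.27. The probe lies on the minus strand at chr7:135927934-135927993, 2013241 bases from the Gdpd3 probe, and its first 30 bases are shown because no name identifies it.
A_52_P932831: gctccactcactgtgaaagcctgttatttg
On the 4 run 1 arrays with high Slx1b it read -2.35 to -2.12, and on the other 10 it read -4.46 to -3.40. In run 2 it was highest on WT arrays 9, 11, 13 and 14, at -1.30 to -0.79. WT array 8, the remaining array with low Gdpd3, read -2.04, within the -2.40 to -1.59 of the arrays with higher Gdpd3. Per3 4/4 arrays 1 and 3, where Slx1b A_51_P335104 was low, did not stand apart at A_52_P932831. Both lay within that same range, and Per3 4/4 array 4 was lower than either, at -2.40. The run 2 separation of the arrays at Slx1b was thus not seen at this probe. For Gdpd3 the 5 most alike probes came no closer than 0.94 to 0.97, where a flat line gave 1.03.

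Rpp40 also gave unlike values at its 2 probes. At A_51_P319392 the lowest, median and highest levels of run 1 were -3.33, -2.40 and -2.28 in Per3 5/5 mice and -6.04, -3.29 and -2.93 in WT mice. The value of -6.04 was that of WT array 4, the only array of the run where the spot was not well above background. Per3 5/5 arrays 3 to 7 lay above all 7 WT arrays, while Per3 5/5 arrays 1 and 2 lay within the WT range.

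In run 2 this probe was low, at -6.80 to -5.35, on Per3 4/4 arrays 2 and 3 and on WT arrays 9, 10, 11, 14 and 15. The other 9 arrays lay between -3.69 and -2.90. All 9 spots of the higher arrays were well above background, against 1 of 7 of the low ones, so that the remaining 6 low values have only an upper bound. The interval of 1.66, between WT arrays 9 and 8 whose spots were both well above background, ranked 55 of 29835 probes, and no other tested probe had its widest interval between these sets of arrays. The sets also differed from those at Slx1b and Gdpd3. Of the 7 low arrays, Per3 4/4 array 3 was low at Slx1b and WT arrays 9, 11 and 14 were low at Gdpd3.

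**Figure D3:**
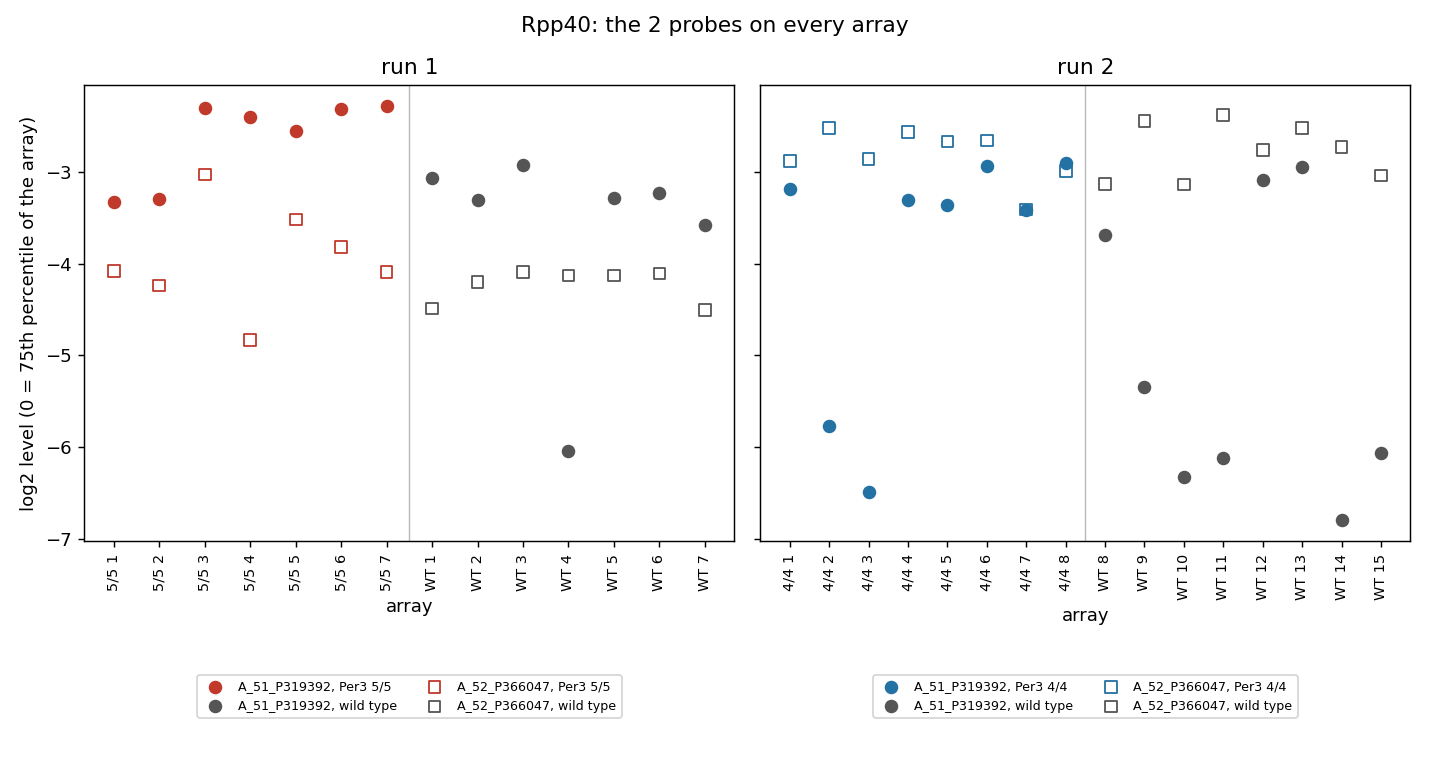
Log2 level of Rpp40 probes A_51_P319392 and A_52_P366047 on each array of run 1 and run 2, with 0 as the 75th percentile of the array and 1 point per array. In run 2 A_51_P319392 lies at or below -5.35 on 7 arrays and at or above -3.69 on 9, while A_52_P366047 stays between -3.41 and -2.38.

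A_52_P366047 was well above background on all 30 arrays, with levels from -4.83 to -3.03 in run 1 and from -3.41 to -2.38 in run 2. Its differences were 0.29 (SE 0.19) in Per3 5/5 mice and -0.05 (SE 0.18) in Per3 4/4 mice, or 0.02 without arrays 6 and 7. Both were smaller than the pooled SDs within groups of 0.42 and 0.30. The Per3 5/5 difference was 0.14 without Per3 5/5 array 3, 0.44 without Per3 5/5 array 4, 0.18 after normexp and 0.06 with array weights.

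At A_51_P319392 the means were -2.64 ± 0.47 (SD, n = 7) in Per3 5/5 mice and -3.64 ± 1.08 (SD, n = 7) in WT mice, a difference of 0.99 (SE 0.62). WT array 4 set much of it, and without that array the difference was 0.59. In run 2 the means were -3.92 ± 1.39 (SD, n = 8) in Per3 4/4 mice and -5.05 ± 1.56 (SD, n = 8) in WT mice, a difference of 1.13 (SE 0.58), or 0.88 without Per3 4/4 arrays 6 and 7. After a normexp background correction the differences were 0.51 and 0.32. Over all arrays, the run 1 difference exceeded the pooled SD of 0.83 and the run 2 difference was smaller than that of 1.48, with spots not well above background in both.

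The difference in level between the 2 Rpp40 probes of an array lay between 0.72 and 2.43 on 13 arrays of run 1 and at -1.91 on WT array 4. In run 2 it ranged from -4.07 on WT array 14 to 0.09 on Per3 4/4 array 8. The ranges were 4.34 and 4.16. In run 1, 74 of 13772 pairs, Rpp40 included, ranged at least as widely, and in run 2, 201 of 13686. The lowest value of each run rests on a spot of A_51_P319392 that was not well above background, which limits these ranks.

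The 2 patterns most like that of A_51_P319392 were also on chromosome 13, at 4930447K03Rik and A230103O09Rik. Their mean absolute differences were 0.74 and 0.77, where the next 3 probes gave 0.80 to 0.81 and a flat line 0.99. The probe of 4930447K03Rik starts at position 34176284 and that of A230103O09Rik at 39926332. At 4930447K03Rik the 5 lowest levels of run 2, from -8.01 to -6.37, were on WT arrays 10, 14 and 15 and Per3 4/4 arrays 3 and 7, of which all but Per3 4/4 array 7 were low at Rpp40. None of those 5 spots was well above background.

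No gene of the same complexes or pathways passed the test. The lists held 18 genes of SLX1-SLX4 and Holliday junction resolution, 12 of RNase P and RNase MRP, and 17 of glycerophosphodiester phosphodiesterases, N-acylethanolamines and lysophosphatidic acid, of which 43 genes were tested through 67 probes. In Per3 5/5 mice 0 of 67 were called by limma at an adjusted p of 0.05, where 0% of all 29947 tested probes were called, and 1 had an unadjusted p under 0.05, where the background was 6.17%. In Per3 4/4 mice 0 of 67 were called, where the background was 0.0134%, and 3 had an unadjusted p under 0.05, where it was 1.73%. The difference between the 2 comparisons, tested as an interaction in limma, was called at 0 of all probes, with 892 at an unadjusted p under 0.05.

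Among genes of SLX1-SLX4 and Holliday junction resolution, the 28 probes had a median difference of 0.05 in Per3 5/5 and -0.02 in Per3 4/4 mice, against -0.02 and 0.01 over all tested probes. In Per3 5/5 mice the lowest was Terf2, a telomere-binding protein, at -0.25 (SE 0.096, adjusted p = 0.796 by limma), with its other 3 probes between -0.15 and -0.01. The highest was Gen1, a Holliday junction resolvase, at 0.50 (SE 0.40) at 1 probe and -0.19 at the other. In Per3 4/4 mice the same Gen1 probe was the lowest at -0.70 (SE 0.37), with 0.18 at the other. The highest was Slx4ip, whose protein binds SLX4, at 0.41 (SE 0.19), with -0.15 and 0.09 at its other probes. Without Per3 4/4 arrays 6 and 7 these differences were -0.62 and 0.45, and the list median was -0.04.

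Among RNase P and RNase MRP genes, the 16 probes had median differences of 0.04 and -0.04. Rmrp, the RNA of RNase MRP, was the lowest in Per3 5/5 mice at -0.28 (SE 0.39), and the protein subunit Rpp30 the highest at 0.22 (SE 0.15). In Per3 4/4 mice the protein subunits Rpp25 and Pop5 were the lowest and the highest, at -0.50 (SE 0.23) and 0.06 (SE 0.13), or -0.70 and 0.18 without arrays 6 and 7, where the list median was -0.01.

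Among the phosphodiesterase and lipid-signalling genes, the 23 probes had median differences of -0.03 and 0.05. Gpcpd1, a glycerophosphocholine phosphodiesterase, was the lowest in Per3 5/5 mice at -0.29 (SE 0.21), and Cnr1, the cannabinoid receptor of neurons, the highest at 0.35 (SE 0.23). In Per3 4/4 mice Lpar3, a lysophosphatidic acid receptor, was the lowest at -0.30 (SE 0.25), and Gdpd2, of the same family as Gdpd3, the highest at 0.36 (SE 0.22). Without arrays 6 and 7 these were -0.47 and 0.26, and the list median was 0.09.

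The probes around the members were described by their differences and by their range over the arrays of a run. Within 1 Mb, 112 probes on chromosome 7 and 13 on chromosome 13 were tested, and limma called 0 in either comparison. At an unadjusted p under 0.05 there were 2 of 125 in Per3 5/5 and 7 of 125 in Per3 4/4 mice, beside the backgrounds of 6.17 and 1.73%. On chromosome 7 the level ranged over more than 2 at 3 probes in run 1, or 2.68%, against 8.57% of all tested probes. In run 2 it did so at 25 probes, or 22.3%, against 28.1%.

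Between the Slx1b and Gdpd3 probes lie 6 probes, for Bola2, Coro1a, Mapk3 and an unnamed transcript. Their levels ranged over 0.49 to 1.55 in run 1 and over 0.53 to 2.31 in run 2. The value of 2.31 was that of the unnamed transcript, whose probe was well above background on 0 arrays of run 2. The others ranged over at most 1.60 in that run. A_51_P335104 ranged over 5.40 and 6.58, and Gdpd3 over 1.50 and 6.16. The 5 widest ranges among the neighbours were all in run 2. One was at Atp2a1, a calcium pump of muscle (7.16, with 2.38 at its other tested probe). The transcription factor Maz had 2 of its 3 tested probes among them (3.95 and 3.30, with 2.63 at the third). The others were at Fam217a, listed as 1700026J04Rik (3.39), and at the kinase Taok2 (3.36, with 2.36 and 0.85 at its other probes). In run 2 these probes of Atp2a1, Fam217a and Taok2 were well above background on 13, 14 and 14 arrays, and those of Maz on 16. The lowest arrays of the 5 were WT array 10 for Atp2a1, WT array 15 for Fam217a and Per3 4/4 array 5 for Maz and Taok2. In that order these arrays had 64.7, 60.9 and 58.6% of spots well above background, in a run that spanned 58.6 to 74.6%. Slx1b A_51_P335104 and Gdpd3 were not low on any of these arrays. The wider-ranging Atp2a1 probe was highest in run 2 on Per3 4/4 arrays 1 and 3 (-0.78 and -0.93), where Slx1b A_51_P335104 was low. The other tested Atp2a1 probe was highest in run 2 on WT array 15 (-0.89). At the wider-ranging probe the next lowest level, -6.72, was on WT array 8, where Gdpd3 was low. The other WT arrays with low Gdpd3 read -2.83 to -1.40 there. A link was not tested.

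**Figure D4:**
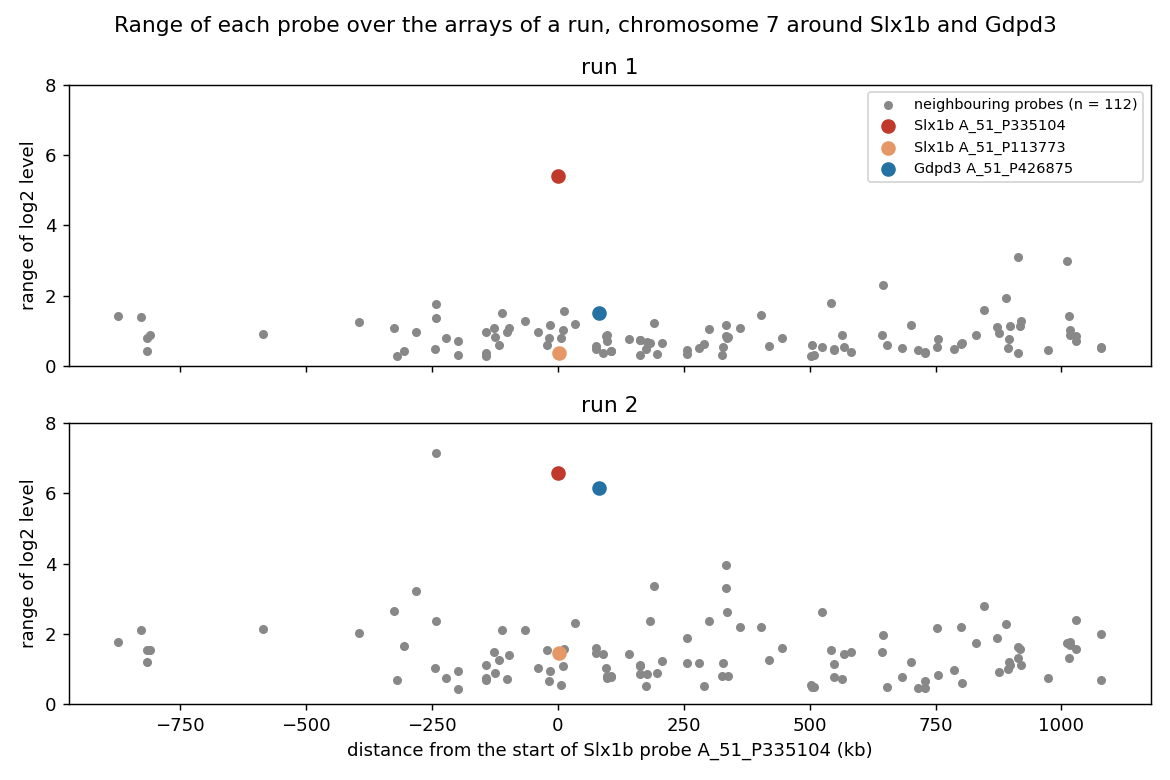
Range of the log2 level over the arrays of run 1 and of run 2 for each tested probe within 1 Mb of the Slx1b and Gdpd3 probes, against distance along chromosome 7 from probe A_51_P335104. A_51_P335104 stands at 5.40 and 6.58 and Gdpd3 at 1.50 and 6.16. In run 2, 1 Atp2a1 probe (7.16, well above background on 13 arrays) ranged more widely than either.

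Markers of other tissue were summed as linear levels, with the 75th percentile as 1. Over both genotypes of a run, the sums of the choroid plexus (9 of 10 genes), anterior pituitary (6 of 8), blood (3 of 5) and hypothalamic neuron (13 of 14) lists overlapped between the high and low arrays of Slx1b A_51_P335104, Gdpd3 and Rpp40 A_51_P319392. Within a genotype most overlapped too, but some did not. A side then held as few as 1 array against 6, and in run 1 Slx1b and Gdpd3 split the same arrays. Besides the pituitary sum at Gdpd3 given above, the pituitary sum in Per3 5/5 mice was 0.686 to 0.775 on the 3 arrays with high Slx1b and 0.96 to 4.18 on the 4 with low Slx1b.

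The blood sum in Per3 4/4 mice was 115 and 151 on the 2 arrays with low Slx1b and 30.2 to 98.6 on the other 6. In Per3 5/5 mice it was 39.4 and 105 on the 2 arrays with lower Rpp40 A_51_P319392 and 22.1 to 34.5 on the other 5. WT array 3, the only WT array of run 1 with high Slx1b and the lower Gdpd3, lay outside the other 6 in 3 of the 4 sums. It had the highest choroid plexus and pituitary sums (11.4 and 1.51) and the lowest blood sum.

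Muscle genes, named after their values were seen, stood out on 1 or both of the Per3 4/4 arrays with low Slx1b. The myosin light chain Mylpf read -0.90 on array 1 and -2.62 on array 3, against -3.53 to -3.03 on the other 14 arrays of run 2. The troponin Tnnc2 read 1.68 on array 1 but -4.16 on array 3, within the -5.12 to -3.15 of the others. The part of these tissues in the levels of the members was not tested.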

How the data were processed

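Hypothalamic RNA was labelled with Cy3 and hybridised to 1-colour Agilent 4x44K arrays. The authors scanned the arrays with Feature Extraction 10.7.1.1, and the deposited scanner files give a background-subtracted, processed intensity per spot. The authors also deposited a table of log2 values shifted to the 75th percentile in GeneSpring, which was used as an alternative. In run 1 its replicate numbers matched those of the scanner files for 1 of 14 arrays, with all 14 in the right group, and arrays are numbered here as in the scanner files. The methods name analysis of variance, an unpaired test and rank products. Each run held 4 slides with both genotypes on each. The run 2 headers name build mm8.

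Outlier spots were left out, the log2 75th percentile of each array was subtracted, and the spots of a probe were averaged. The 29947 probes well above background on at least 50% of the arrays of a group entered 1 limma fit of the 30 arrays, with terms for run and genotype, in version 3.58.1 under R 4.3.3, with Benjamini-Hochberg adjustment over all of them. The procedure was tested on simulated data. The p-values measure only the spread between these samples, which may be technical, and the number of arrays limits the precision.

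The members and lists were chosen with earlier results of these data known. Genes were named by rule: all member probes, the gene at either end of each partner list, the 5 neighbours within 1 Mb with the widest range, and the 5 probes most like each member probe that ranged over more than 2. The measures of intervals, of shared sets of arrays and of probe pairs, the genes between Slx1b and Gdpd3, and the muscle genes were chosen after values were seen. Alternatives covered normalization, background correction, outlier spots, the filter, slide, array weights, variance moderation, the methods' test, the replicate number and arrays left out.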

Additional observations from a re-analysis of the deposited data

Results flagged for a closer look

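In 96 sets of values, each of 1 probe or probe pair in 1 group, the highest or lowest array was compared with the rest of its group by Dixon's criterion. In 14 sets an array stood apart. Chance gives about 1 in 20 groups, but most of these probes were chosen for wide ranges or extreme differences. The count can therefore not be set against that share. The 14 sets involved 8 distinct arrays, and 2 of the 14 are differences between probes that hold a value of a single probe listed here as well. At Slx1b A_51_P335104, WT array 3 read 0.31 and the other WT arrays of run 1 -4.88 to -4.11. On the same array A_52_P932831 read -2.25, against -4.22 to -3.40, and the difference between the 2 Slx1b probes was 1.50, against -3.88 to -2.87. At Slx1b A_51_P113773, WT array 1 read -1.01, against -1.25 to -1.19, and WT array 13 read -2.08, against -1.24 to -0.64. At Rpp40 A_51_P319392, WT array 4 read -6.04, against -3.58 to -2.93, and its difference between the 2 Rpp40 probes was -1.91, against 0.84 to 1.41.

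Among neighbours, Maz probe A_52_P253843 read 0.62 on Per3 4/4 array 7, against -3.00 to -1.32, and 0.95 on WT array 15, against -1.76 to -0.64. A second of the 3 Maz probes, A_51_P191973, read -0.05 on WT array 15, against -2.83 to -1.68. Taok2 read -6.48 on Per3 4/4 array 5, against -5.21 to -4.63. Among genes of the partner lists, Gdpd2 read -0.57 on Per3 4/4 array 7, against -1.70 to -1.17, and -3.32 on WT array 10, against -1.92 to -0.70. Gen1 probe A_52_P661451 read -2.87 on WT array 13, against -6.88 to -5.31.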

How the results depend on the processing

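The partner lists and the chromosomal neighbours held 0 called probes in each comparison under every alternative run. The differences at the member probes moved by less than the pooled SD within the 2 groups compared under every alternative, although some moved by over 1.5 times, as given beside them or here. They kept their sign, except for Slx1b A_51_P113773 and Rpp40 A_52_P366047 in Per3 4/4 mice, which lay near 0 (-0.15 to 0.05 and -0.10 to 0.03 with single arrays left out). With array weights the Slx1b A_51_P335104 difference in Per3 5/5 mice was 2.66. Without single arrays Slx1b A_51_P335104 differed by 0.72 to 1.89 in Per3 5/5 and by -2.01 to -1.22 in Per3 4/4 mice, the last without Per3 4/4 array 3. Gdpd3 differed by 2.44 to 3.32 in Per3 4/4 mice. The difference between the 2 Slx1b probes in Per3 5/5 minus WT mice was 1.05, with 0.55 to 0.57 without Per3 5/5 array 2, 4 or 7 and 1.73 without WT array 3. It was -1.79 in Per3 4/4 minus WT mice, and -1.19 without Per3 4/4 array 3. Between the 2 Rpp40 probes it was 0.70 and 1.18, with 0.28 in the former without WT array 4 and 0.34 and 0.36 with normexp. Over all probes, 0 were called in Per3 5/5 mice, but 16 with array weights and 0 to 3 with single arrays left out (2 without Per3 5/5 array 5, 3 without WT array 7). In Per3 4/4 mice 4 were called, but 0 in a fit to the run alone, 0 by the methods' t-test after Benjamini-Hochberg adjustment, 7 with normexp, with outlier spots kept, with probes above background on every array alone, or without arrays 6 and 7, 8 with a variance trend and robust moderation, and 9 with slide as a random block or with array weights. Single arrays left out gave 2 (without Per3 4/4 array 4 or WT array 8) to 8 (without Per3 4/4 array 7), with 7 without WT array 9 or 11. The causes were not tested. With the replicate number of run 1 as a block, 0 probes were called in Per3 5/5 mice, and same-numbered arrays, which share only a number, had deviations correlated at -0.28 to 0.40. No paired analysis was possible because Per3 4/4 and WT arrays of run 2 share fewer than 2 replicate numbers. Rpp40 A_51_P319392 was not above background on every array and has no value under that filter.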
